A study of Homo sapiens with 22 samples.

Results

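ITGA3 and ITGB4 encode integrin subunits, and each was read by 1 probe with a single gene symbol, so they make up 2 of the 14257 probes measured in either of the 2 cell lines compared here. ITGA3 is the α3 subunit, which pairs with β1 (ITGB1). ITGB4 is the β4 subunit, which pairs with α6 (ITGA6). Both genes were chosen by their treated-minus-untreated values in the 2 lines and the difference of these, measured on these same arrays. Their log2 changes and the difference of these changes between lines are therefore given as descriptions, with standard errors and no test.

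Integrins are heterodimeric receptors that join the cell surface to the extracellular matrix. Both α3β1 and α6β4 bind laminins, the cross-shaped proteins of basement membranes. α3β1 links to the actin cytoskeleton through adaptor proteins at focal adhesions. α6β4 is the core receptor of hemidesmosomes, where the long cytoplasmic tail of β4 binds plectin and so reaches the keratin filaments of epithelial cells. Both receptors are found in carcinomas of epithelial origin, the pancreas among them.

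The arrays were of the CodeLink human whole genome type, and each measured RNA of 1 sample. The first line was Mia-PaCa-2, from a pancreatic carcinoma, with 6 untreated arrays and 6 arrays of cells given 1 µM Amblyomin-X for 4 h. The second was SK-MEL-28, from a malignant melanoma, with 5 untreated arrays and 5 arrays of cells given the same dose for the same time. Amblyomin-X is a Kunitz-type inhibitor from a tick, made as a recombinant protein, and the series title sets it against the cell cycle and the ubiquitin-proteasome system. Both lines were grown in the same serum-containing medium, the untreated cells received no Amblyomin-X, and the labels name no vehicle. They do not say whether the arrays of a group came from separate cultures, so the spread between arrays may be partly technical. In these bulk samples, fewer cells of a type and less RNA per cell cannot be told apart.

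Of the arrays, 4 stood apart from their own line. Over 5195 probes, the other Mia-PaCa-2 arrays correlated with the other SK-MEL-28 arrays at 0.357 to 0.471, whereas Mia-PaCa-2 untreated arrays 4 and 5 correlated with SK-MEL-28 treated arrays 3 and 5 at 0.864 to 0.962. The former pair correlated at 0.738 to 0.838 with the other Mia-PaCa-2 arrays and at 0.710 to 0.782 with the other SK-MEL-28 arrays. For the latter pair these values were 0.714 to 0.827 and 0.580 to 0.773, so both pairs resembled both lines. These 4 arrays were singled out after their values were seen, and the ITGA3 and ITGB4 changes are given with and without them. The other 8 SK-MEL-28 arrays formed 2 sets: untreated 1 and 3 with treated 1 (r of 0.938 to 0.960), and untreated 2, 4 and 5 with treated 2 and 4 (0.913 to 0.943). RPS2, a ribosomal protein gene used by every cell, read 33.5 to 217 on those 8 arrays against 10269 and 6710 on treated arrays 3 and 5. In contrast, EEF1A1, a translation elongation factor, and GAPDH, a glycolytic enzyme, read high on the 8 arrays too, at 2151 to 9861 and 1404 to 7505. Whether the deposited probe names hold for those 8 arrays was not tested, and the SK-MEL-28 values below carry that limit. None of 12 melanocyte markers had values in SK-MEL-28, so its label could not be checked, while 5 of 12 epithelial markers, KRT8, KRT18 and KRT19 among them, had values in Mia-PaCa-2.

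In Mia-PaCa-2 the normalized intensity of ITGA3, the laminin-binding α3 subunit, ranged on the untreated arrays from 831 to 1242 with a median of 1032. On the arrays of Amblyomin-X-treated cells it ranged from 714 to 837 with a median of 798. Thus 5 of the 6 untreated arrays lay above every treated one, and untreated array 2 was the exception. The share of all probes so separated in this line was not computed, and 13.2% of probes had a lower change than ITGA3. As log2 levels the group means were 10.02 ± 0.20 untreated and 9.62 ± 0.09 treated (SD, n = 6 each). The log2 change was -0.40 ± 0.16 (SE), with untreated 1.32-fold over treated. Without untreated arrays 4 and 5 it was -0.41 ± 0.16, so these arrays had little bearing on it. The probe was among the brighter ones, with 93.5% to 96.7% of an array's probes below it.

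ITGB4, the hemidesmosomal β4 subunit, ran on the untreated Mia-PaCa-2 arrays from 125 to 295 with a median of 204. On the treated arrays it ran from 92.8 to 136 with a median of 119. Untreated array 2 was again the low one, at 125, the same as treated array 2, and the other 5 untreated arrays read at least 161, above every treated array. How many probes were so separated was again not computed, and 2.71% had a lower change than ITGB4. The log2 group means were 7.62 ± 0.43 untreated and 6.85 ± 0.19 treated (SD, n = 6 each), a change of -0.77 ± 0.21 (SE), with untreated 1.70-fold over treated. Untreated array 4, one of the arrays that stood apart, held the highest value. Without it and array 5 the change was -0.61 ± 0.20, with an untreated mean of 7.46 ± 0.40 (n = 4). This probe sat nearer the middle of the arrays, with 47.0% to 82.6% of probes below it.

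**Figure D1:**
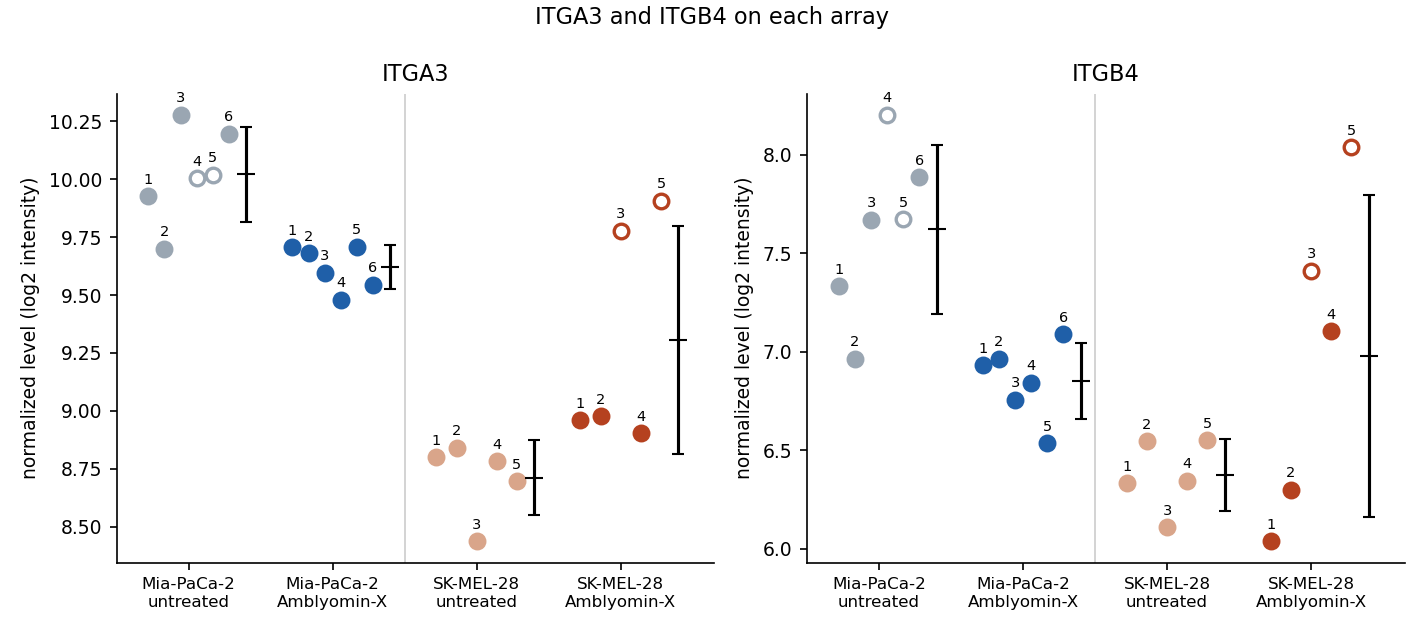
Normalized log2 intensity of ITGA3 (left) and ITGB4 (right) on each array, by cell line and treatment; numbers are replicate numbers, open circles are the 4 arrays that stood apart, and the bars give the mean ± SD over all arrays of a group. In Mia-PaCa-2 only untreated array 2 lies within the treated range for either gene, and in SK-MEL-28 treated arrays 3 and 5 are the highest of their line for both.

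In SK-MEL-28 the untreated arrays 1 to 5 read ITGA3 at 446, 459, 346, 440 and 415. The treated arrays 1 to 5 read it at 498, 504, 878, 479 and 961. All 5 treated arrays lay above all 5 untreated arrays, by a wide margin on arrays 3 and 5 and by a narrow one on the other 3. Of all probes tested in this line, 0.452% had every treated array above every untreated one. The log2 group means were 8.71 ± 0.16 untreated and 9.31 ± 0.49 treated (SD, n = 5 each), a change of 0.59 ± 0.24 (SE) or 1.51-fold. Without treated arrays 3 and 5 the treated mean was 8.95 ± 0.04 (n = 3) and the change 0.24 ± 0.17, or 1.18-fold. The groups still did not overlap, as for 1.37% of probes in that smaller comparison. Within the 2 sets of alike arrays, the treated-minus-untreated difference was 0.34 (1 treated array, 2 untreated) and 0.17 (2 treated, 3 untreated), and with the set as a block, chosen after seeing the data, the change was 0.23 ± 0.14.

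ITGB4 on the untreated SK-MEL-28 arrays 1 to 5 read 80.6, 93.5, 69.0, 81.3 and 93.7. On the treated arrays 1 to 5 it read 65.7, 78.8, 170, 138 and 263. Treated arrays 3, 4 and 5 were above the untreated range, while treated array 1 was below it and treated array 2 within it. The log2 means were 6.38 ± 0.18 untreated and 6.98 ± 0.82 treated (SD, n = 5 each), a change of 0.60 ± 0.34 (SE). It was 0.34 without treated array 5 and 0.10 ± 0.26 without treated arrays 3 and 5, so most of it came from these 2 arrays. Within the sets of alike arrays the difference was -0.18 in the first and 0.22 in the second. On treated arrays 3 and 5, 70.2% and 81.0% of an array's probes lay below it, and on the other SK-MEL-28 arrays 29.5% to 63.4%. The sources used here do not give the background behind its intensities.

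Set in order by mean log2 level, ITGA3 ran from untreated Mia-PaCa-2 (10.02) through treated Mia-PaCa-2 (9.62) and treated SK-MEL-28 (9.31) to untreated SK-MEL-28 (8.71). Treated Mia-PaCa-2 and treated SK-MEL-28 differed by less than the SD of the latter. Without treated arrays 3 and 5, the SK-MEL-28 treated mean of 8.95 was below every ITGA3 value in Mia-PaCa-2. For ITGB4 the order was untreated Mia-PaCa-2 (7.62), treated SK-MEL-28 (6.98), treated Mia-PaCa-2 (6.85) and untreated SK-MEL-28 (6.38), and the middle groups again differed by less than the SD of treated SK-MEL-28. Without treated arrays 3 and 5 the latter was at 6.48 ± 0.56 (n = 3), below treated Mia-PaCa-2, so the order of the middle groups turned. The lines were normalized apart, so levels set across them are side by side only and were not compared by a test.

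The question posed by the design, whether Amblyomin-X acted alike in both lines, was described by the difference of the 2 log2 changes. For ITGA3 this difference, Mia-PaCa-2 minus SK-MEL-28, was -0.996 ± 0.264 (SE). All 6 treated Mia-PaCa-2 arrays lay below their untreated mean and all 5 treated SK-MEL-28 arrays above theirs, a pattern shared by 0.958% of the probes measured in both lines. Without the 4 arrays that stood apart the difference was -0.64 ± 0.21, and the pattern held for ITGA3 and for 0.702% of probes. Leaving out only the SK-MEL-28 pair gave the same -0.64, while leaving out only the Mia-PaCa-2 pair left it at -1.0. The ITGA3 difference thus moved with the 2 SK-MEL-28 arrays and not with the 2 Mia-PaCa-2 arrays.

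For ITGB4 the difference of the changes was -1.37 ± 0.39 (SE) over all arrays. It was -0.71 ± 0.32 without the 4 arrays, -0.87 without the SK-MEL-28 pair and -1.21 without the Mia-PaCa-2 pair, so both pairs contributed to its size. The median difference over all probes was itself below 0, at -0.22 with all arrays and -0.02 without the 4. Relative to these medians, both genes stood lower with and without the 4 arrays.

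**Figure D2:**
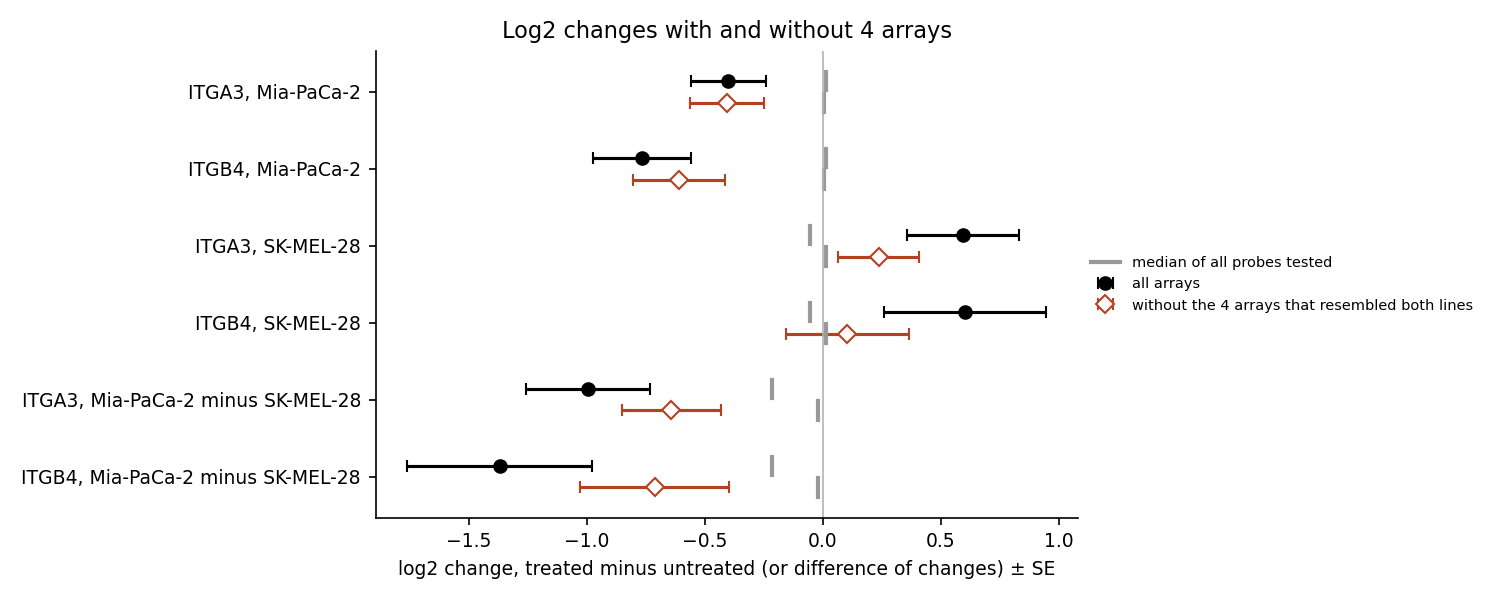
Log2 change (treated minus untreated) of each gene in each line, and the difference of the changes (Mia-PaCa-2 minus SK-MEL-28), ± SE; filled circles use all arrays, open diamonds leave out the 4 arrays that stood apart, and short grey lines give the median over all probes tested. The Mia-PaCa-2 changes keep close to -0.40 for ITGA3 and lie at -0.77 and -0.61 for ITGB4, while both SK-MEL-28 changes move toward 0 without the 4 arrays.

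Across all probes, limma called 0 of the 11604 tested in Mia-PaCa-2, 0 of the 7973 for SK-MEL-28 and 0 of 5321 for the difference at a Benjamini-Hochberg adjusted p under 0.05, that is 0% in each, so neither ITGA3 nor ITGB4 was called. At an unadjusted p under 0.05 the counts were 1113 (9.59%), 446 (5.59%) and 291 (5.47%). Without the 4 arrays they were 636 (5.48%), 206 (2.61%) and 157 (2.98%). In SK-MEL-28, whose replicate numbers were read as pairing the arrays, the replicate block gave 858, with ITGA3 at 0.59 ± 0.25 and ITGB4 at 0.60 ± 0.31. As a description, 13.2% of probes had a lower change than ITGA3 in Mia-PaCa-2 and 2.71% a lower one than ITGB4. In SK-MEL-28, 7.25% and 7.12% had a higher one. Without the 4 arrays these shares were 6.89% and 2.36% in the first line, and 17.5% and 34.3% in the second.

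Among the untreated Mia-PaCa-2 arrays, array 2 was the lowest and array 1 the next lowest for both ITGA3 and ITGB4, whereas the highest array was 3 for ITGA3 and 4 for ITGB4. After each probe was centred on its mean in the line, the root mean square difference between ITGA3 and ITGB4 over the 12 Mia-PaCa-2 arrays was 0.323 on the log2 scale, and 0.220 over the 10 arrays without the pair that stood apart. In SK-MEL-28 it was 0.322 over 10 arrays and 0.316 over 8. Both treatment groups were centred together, so the treated-minus-untreated shift, on which the 2 genes were chosen, is part of this measure. The ranks are for that reason descriptions and no evidence of a link between the genes. By this measure ITGA3 ranked 38 among 5817 probes as a match for ITGB4 in Mia-PaCa-2 and 32 among 2840 on the SK-MEL-28 arrays. Without the arrays that stood apart it ranked 8 among 4463 and 342 among 2543. In the reverse direction, ITGB4 ranked 183 among 5818 and 69 among 2840 as a match for ITGA3. Without the arrays that stood apart those ranks were 14 among 4464 and 212 among 2544. The compared probes had an SD of at least 0.3, whereas that of ITGA3 was 0.26 over the 12 Mia-PaCa-2 arrays. Its difference from ITGB4 there, 0.323, was larger than that SD, so ITGB4 was not a close match.

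**Figure D3:**
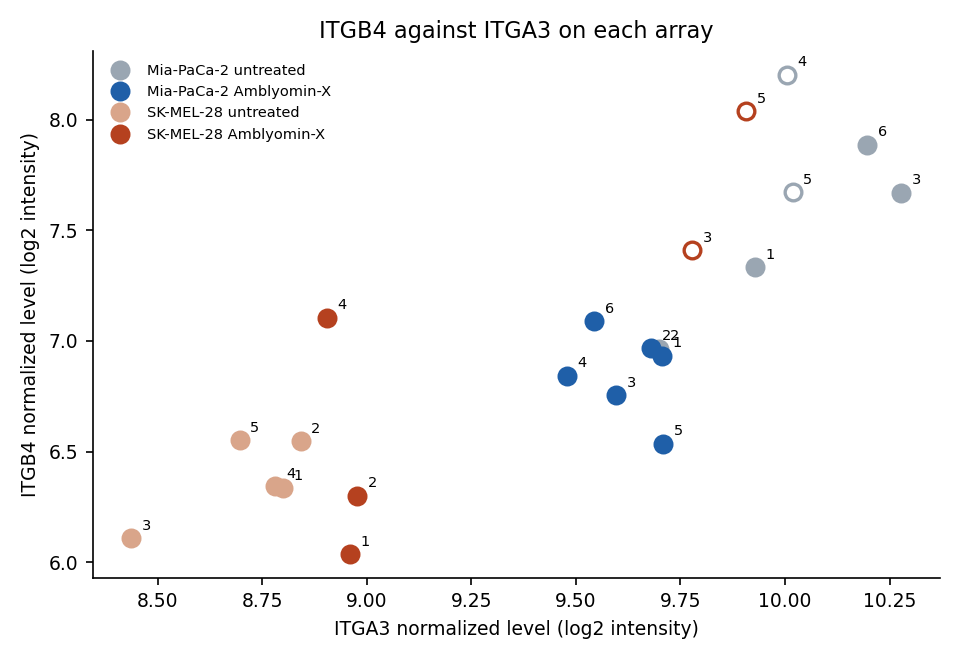
Normalized log2 intensity of ITGB4 against ITGA3 on each of the 22 arrays, with replicate numbers; colours give the groups and open circles the 4 arrays that stood apart. SK-MEL-28 treated arrays 3 and 5 lie among the Mia-PaCa-2 arrays and away from the other 8 SK-MEL-28 arrays; untreated array 2 of Mia-PaCa-2 is nearly covered by treated array 2.

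Other genes came closer to either subunit. For ITGA3 in Mia-PaCa-2 they were CLYBL (root mean square difference 0.167), CYSLTR2 (0.169) and PRB3 (0.186). For ITGB4 they were CYSLTR2 (0.193), FAM162A (0.218) and DHRS7 (0.222). CYSLTR2, a receptor for cysteinyl leukotrienes, was thus near both subunits, and without untreated arrays 4 and 5 it was the nearest to each, at 0.139 for ITGA3 and 0.129 for ITGB4. Its own log2 change was -0.62 in Mia-PaCa-2, against 0.43 on the SK-MEL-28 arrays, or 0.16 there without treated arrays 3 and 5. The Mia-PaCa-2 change enters the measure itself, so it adds nothing to the likeness. In SK-MEL-28 the nearest genes to ITGA3 were NME4 (0.150), ADIPOR1 (0.167) and TMEM207 (0.178), and to ITGB4 they were CDR2 (0.196), GRIP2 (0.228) and NPR1 (0.230). None of these 6 stayed among the nearest 3 when treated arrays 3 and 5 were left out: LINC00887, TMCO6 and TMED4 then led for ITGA3, and LOC101927157, RTN4RL1 and CUZD1 for ITGB4. The ITGA3 matches then lay at 0.174 to 0.185, about the size of its own SD there, 0.175, so they were not close ones.

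Of the partner subunits, ITGB1, the β1 chain that pairs with α3, read 249 to 968 (median 540) on the untreated and 178 to 440 (median 283) on the treated Mia-PaCa-2 arrays. Its log2 change was -0.81 ± 0.31 (SE; limma adjusted p = 0.501), with the groups overlapping. ITGA6, the α6 chain that pairs with β4, had a change of -0.12 ± 0.28 in Mia-PaCa-2 (limma adjusted p = 0.860; -0.28 ± 0.31 without untreated arrays 4 and 5) and was not analysed in SK-MEL-28. In SK-MEL-28 ITGB1 split by the sets of alike arrays and not by treatment, at 449 to 704 in the first set and 44.9 to 109 in the second, with 1306 and 496 on treated arrays 3 and 5. Its change there was 0.88 ± 0.96 (limma adjusted p = 0.889), and -0.10 ± 1.02 without treated arrays 3 and 5. Between the sets the untreated means were much closer for ITGA3, at 8.62 and 8.77, and for ITGB4, at 6.22 and 6.48, against 8.93 and 6.23 for ITGB1. For ITGB4 the untreated arrays of the first set, at 69.0 and 80.6, still lay below those of the second, at 81.3 to 93.7.

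Beyond ITGA3 and ITGB4, 7 integrin genes had values in Mia-PaCa-2, while SK-MEL-28 had 4. In Mia-PaCa-2, 4 of the 7 had a positive and 3 a negative log2 change, with a median of 0.08 against 0.01 for all probes (-0.00 against 0.00 without untreated arrays 4 and 5), and 0 of the 7 passed the adjusted threshold (4 had an unadjusted p under 0.05, where 9.59% of all probes did, and 1 without the arrays that stood apart, where 5.48% did). Besides ITGB1, ITGA11, a collagen-binding subunit, had the next lowest change at -0.52 ± 0.22, and without untreated arrays 4 and 5 it was -0.25 ± 0.17. ITGAE, the αE subunit that binds E-cadherin, was highest at 0.66 ± 0.27, or 0.28 ± 0.20 without them, followed by ITGB7, its β partner, at 0.55 ± 0.22 (0.34 ± 0.20) and ITGAV at 0.11 ± 0.18 (-0.00 ± 0.16).

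In SK-MEL-28, 2 of the 4 other integrin genes had a positive and 2 a negative log2 change, with a median of 0.31 against -0.05 for all probes (-0.11 against 0.01 without treated arrays 3 and 5), and 0 had an unadjusted p under 0.05, where 5.59% of all probes did. ITGA2, the α2 collagen receptor subunit, had the highest change at 1.35 ± 0.64. Like ITGA3 and ITGB4 it read highest on treated arrays 3 and 5 (388 and 125, against 17.1 to 67.9 on the other 8), and without them its change was 0.51 ± 0.52. ITGAX, a leukocyte subunit, was at -0.38 ± 0.36 and ITGA11 at -0.27 ± 0.27 (-0.65 ± 0.42 and -0.13 ± 0.30 without them). For the difference of the changes, all 3 genes measured in both lines were negative, where 25.3% of all probes were positive (47.5% without the 4 arrays), with ITGB1 at -1.69 ± 0.98, ITGA2 at -1.27 ± 0.64 and ITGA11 at -0.25 ± 0.34, and limma called 0 of them. Without the 4 arrays these were -0.74, -0.46 and -0.12, still negative.

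**Figure D4:**
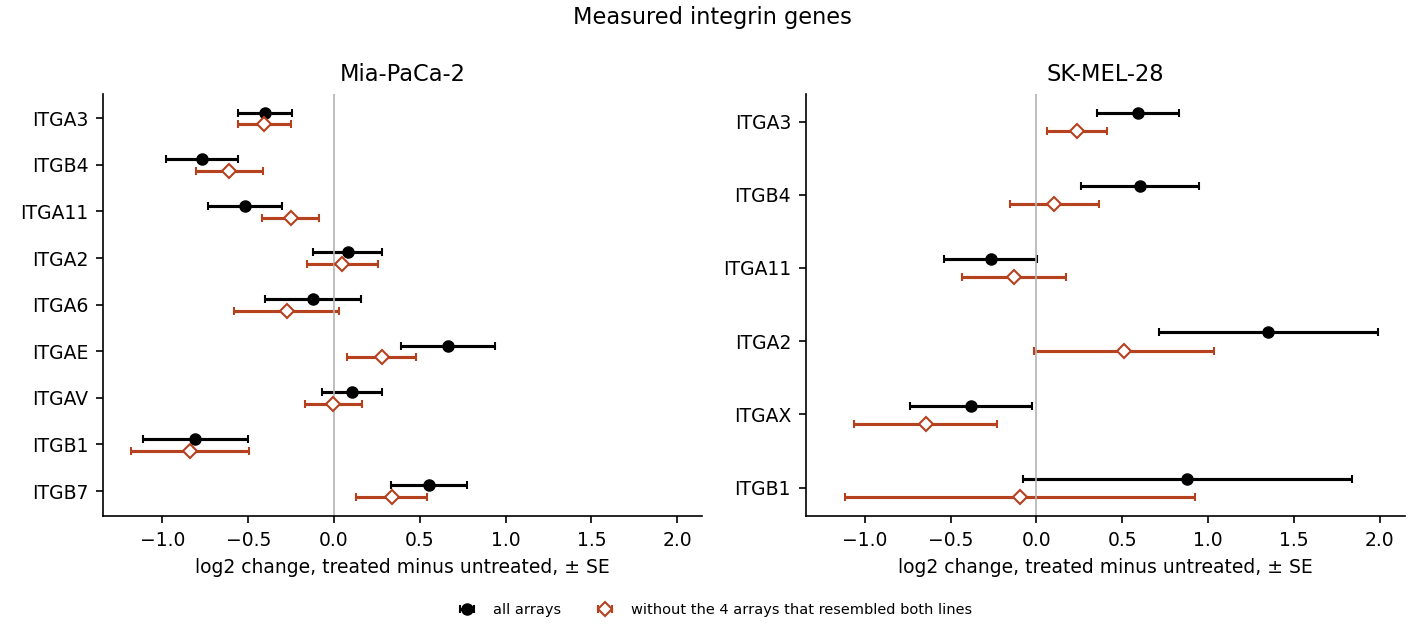
Log2 change (treated minus untreated) ± SE of ITGA3, ITGB4 and every other measured integrin gene in Mia-PaCa-2 (left) and SK-MEL-28 (right); filled circles use all arrays and open diamonds leave out the 4 arrays that stood apart. In Mia-PaCa-2, ITGB4 and ITGB1 have the lowest values, at -0.77 and -0.81; in SK-MEL-28 the bars of ITGB1 and ITGA2 are the widest.

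Around these receptors, few ligands had deposited values. LAMA5, the α5 laminin chain, was the 1 of 12 laminin chains with values in Mia-PaCa-2. Its change was -0.02 ± 0.29 (-0.40 ± 0.20 without untreated arrays 4 and 5), and 0 had values in SK-MEL-28. Of 26 other matrix ligands, 5 had values in Mia-PaCa-2 (1 positive, 4 negative, median -0.09) and 4 in SK-MEL-28 (2 and 2, median 0.08), with CCN1 at -0.21 ± 0.33 and COL4A1 at -0.09 ± 0.20 in the first line and COL1A1 at 0.30 ± 0.23 and FBN1 at 0.25 ± 0.37 in the second. These were -0.00, -0.05, 0.38 and -0.28, in this order, without the 4 arrays. Limma called 0 genes of either list.

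Among the proteins that ITGB4 meets in the hemidesmosome and the tetraspanins that associate with laminin-binding integrins, 5 of 12 had values in Mia-PaCa-2 (1 positive, 4 negative, median -0.31) and 4 in SK-MEL-28 (2 and 2, median -0.06). DST, which encodes the hemidesmosomal plakin BP230, was at -0.34 ± 0.23 and TSPAN4, a tetraspanin, at -0.44 ± 0.32 in Mia-PaCa-2. PLEC, the gene of plectin, in SK-MEL-28 was at 0.61 ± 0.60 (-0.34 without treated arrays 3 and 5) and CD82, another tetraspanin, at -0.20 ± 0.16 (-0.13 without them). For the focal adhesion side, where ITGA3 and β1 act, 19 of 32 adaptor genes had values in Mia-PaCa-2 (9 positive, 10 negative, median -0.02) and 12 in SK-MEL-28 (6 and 6, median 0.02). The split was 7 positive and 12 negative (median -0.06) in the first line, and 8 and 4 (median 0.07) in the second, without the 4 arrays. LIMS2, an adaptor of integrin-linked kinase, was at -1.88 ± 0.67 (-0.62 ± 0.22 without untreated arrays 4 and 5) and ITGB1BP1, which binds the β1 tail, at 0.59 ± 0.29 (0.22 ± 0.23 without them) in Mia-PaCa-2. TLN1, the gene of talin 1, was at 0.60 ± 0.35 and ACTN1, an actin crosslinker, at 0.39 ± 0.27 in SK-MEL-28, or 0.67 ± 0.44 and 0.18 ± 0.30 without treated arrays 3 and 5. Limma called 0 genes of these lists in either line.

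Markers of epithelial cells, which carry both receptors, were set beside the SK-MEL-28 values. The 2 of 12 with values there, MUC1 and SFN, summed to 79.1 to 244 on the untreated and 96.0 to 310 on the treated arrays, and to 286 and 302 on treated arrays 3 and 5. In Mia-PaCa-2 the 4 epithelial markers with a value on every array (KRT8, KRT19, CLDN4 and MUC1) summed to 566 to 1733 untreated and 438 to 786 treated. KRT18 had no value on untreated arrays 1 and 4 or treated arrays 1 and 4, and read 8632 to 13759 on the other untreated and 10630 to 17925 on the other treated arrays. MUC1, a membrane mucin of epithelial cells, was named after its values were seen. It had a lower treated than untreated mean in Mia-PaCa-2 and a higher one in SK-MEL-28, as ITGA3 and ITGB4 did. It read 88.3 to 199 untreated and 53.8 to 90.0 treated in Mia-PaCa-2, with log2 means of 7.13 ± 0.45 and 6.20 ± 0.33 (SD, n = 6 each). On the SK-MEL-28 arrays its log2 means were 6.55 ± 0.49 untreated and 7.12 ± 0.65 treated (SD, n = 5 each), with the highest values, 186 and 233, on treated arrays 3 and 5. The other treated arrays read MUC1 at 71.3 to 138, overlapping the untreated 55.4 to 131. SFN did not share the higher treated mean, with log2 means in SK-MEL-28 of 6.16 ± 1.07 untreated and 6.07 ± 1.13 treated (SD, n = 5 each). It read 100 and 69.0 on treated arrays 3 and 5, within the 24.7 to 189 of the other treated arrays. CLDN4, a tight junction claudin, had log2 means of 7.28 ± 0.27 untreated and 6.93 ± 0.12 treated in Mia-PaCa-2. The treated means of KRT8 (8.44 untreated, 7.92 treated) and KRT19 (7.52, 7.11) were also lower there. KRT18 went the other way, at 13.26 untreated and 13.64 treated (n = 4 each). The part of these markers in the ITGA3 and ITGB4 values was not tested. Of the other lists, SLC45A2 was the 1 of 12 melanocyte markers with values in Mia-PaCa-2 (125 to 196 untreated, 126 to 209 treated). Of 7 fibroblast markers, Mia-PaCa-2 had 1 and SK-MEL-28 had 2, and leukocyte markers had 0 of 6 in both.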

How the data were processed

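Per the file headers, the authors deposited 1 linear intensity per probe for each array and a table of normalized intensities of the same probes; how background was corrected is not stated in the sources used here. Within each line all arrays of that table share 1 maximum and keep the rank order of the deposited intensities (Spearman's rho of 1), as a quantile normalization per line leaves them. From these values log2 levels were computed. Median intensities before normalization ran from 68.1 to 156 in Mia-PaCa-2 and from 55.4 to 165 in SK-MEL-28; the number of arrays limits the precision.

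Probes were named through the platform annotation: 8051 had 1 symbol, 400 several and 5806 none. Of the 8051, 8043 matched RefSeq by gene ID. Each line was fitted alone with limma 3.58.1 (lmFit and eBayes) in R 4.3.3, leaving out probes with values on fewer than 3 arrays of a group, with Benjamini-Hochberg adjustment at 0.05. The difference of the changes was a contrast over all 22 arrays. Tables and figures were made with Python 3.11.15, pandas 2.3.3, NumPy 2.4.6 and matplotlib 3.10.9. The fit was tested on simulated data.

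The 2 genes, the lists and the tests were chosen with earlier results of these data known. Named were ITGA3 and ITGB4, of the other integrin genes up to 3 with the highest and 3 with the lowest change per line and for the difference, ITGB1, ITGA6, the 2 genes of each other list with the smallest p per line, and the 3 genes nearest to each subunit among those with an SD of at least 0.3. RPS2, EEF1A1, GAPDH, MUC1, CLDN4 and SFN were added after their values were seen.

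Deviations from the group means correlated between same-numbered SK-MEL-28 arrays at 0.247 to 0.602 in all 5 pairs, so the numbers, taken from the titles, were read as pairing them. Untreated arrays 3 and 5, however, correlated most with treated arrays 1 and 4. The pairs numbered 1, 2 and 4 each fell within 1 set of alike arrays, so pairing and sets cannot be told apart there. Alternatives were other normalizations, array weights, robust and trended eBayes, a filter on dim probes, the replicate block, arrays left out and, added later, the sets of alike arrays and single pairs left out.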

Additional observations from a re-analysis of the deposited data

Results flagged for a closer look

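The ITGA3 difference of the log2 changes, -0.996, was singled out because every treated Mia-PaCa-2 array lay below its untreated mean and every treated SK-MEL-28 array above its own. The difference was not tested, since the gene was picked with it known. Without the 4 arrays that stood apart it was -0.64.

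A search for single arrays far from the rest of their group, over 30 groups of integrin genes, found 2, where chance gives about 1 in 20 (1.5 of 30). ITGA6, the partner of ITGB4, had a log2 level of 5.13 on Mia-PaCa-2 treated array 1, against 6.19 to 6.78 on the other treated arrays. ITGAX had 4.29 on SK-MEL-28 treated array 2, against 5.78 to 6.34 on the others. The rule flagged no array for ITGA3 or ITGB4. It compares the most extreme array with the next one, so 2 far arrays can hide each other. ITGA3 read 9.78 and 9.91 on SK-MEL-28 treated arrays 3 and 5, against 8.90 to 8.98 on the other treated arrays, and was not flagged.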

How the results depend on the processing

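The ITGA3 and ITGB4 changes and their differences kept their direction in all 136 recomputed values, and 132 lay within 1 residual SD of the value given. The exceptions were the differences without the 4 arrays (-0.64 for ITGA3, -0.71 for ITGB4) and without the SK-MEL-28 pair alone (-0.64 and -0.87). The replicate block, the dim-probe filter and robust and trended eBayes could not move a change within a line or the difference of the changes. Their agreement was thus fixed in advance. The fits with 1 array left out share all their arrays with the value given, so they are not independent of it. In SK-MEL-28 the residual SD was wide, at 0.37 for ITGA3 and 0.59 for ITGB4. Falls there from 0.59 to 0.24 and from 0.60 to 0.10 without the 4 arrays thus still counted as within 1 SD. With the sets of alike arrays as a block and treated arrays 3 and 5 left out, ITGB4 there was at 0.08 ± 0.21, less than its SE. Leaving out 1 array at a time gave -0.47 to -0.35 for ITGA3 and -0.90 to -0.65 for ITGB4 in Mia-PaCa-2, 0.44 to 0.69 and 0.34 to 0.84 in SK-MEL-28, and -1.10 to -0.85 and -1.60 to -1.10 for the difference. With intensities centred on each array's median in place of the authors' normalization, ITGA3 was at -0.32 in Mia-PaCa-2, and on the SK-MEL-28 arrays at 0.63. In Mia-PaCa-2 the same-numbered arrays did not deviate together (-0.187 to 0.437), and a replicate block gave ITGA3 -0.40 ± 0.18 and ITGB4 -0.77 ± 0.22; no call changed under the block in any comparison.

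The count of probes called stayed at 0 under every alternative run except array weights in Mia-PaCa-2, which called 1, N4BP2L2 (log2 change -2.04, limma adjusted p = 0.0457), named after its value was seen; leaving out 1 array at a time gave 0 throughout. The count at an unadjusted p under 0.05 moved by over 1.5 times from 1113 in Mia-PaCa-2 to 636 without the arrays that stood apart, and to 1887, 689 and 643 when untreated array 1, 4 or 5 was left out. In SK-MEL-28 it moved from 446 to 206, 858 (replicate block), 285 (without the lowest 25% of probes), and 720, 296 and 228 without treated arrays 1, 3 and 5. For the difference it moved from 291 to 157, to 147 without the dim probes and to 437 without SK-MEL-28 treated array 1.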
